A study of Homo sapiens with 32 samples.

Results

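Under tunicamycin, HCT116 cells lacking IGF2BP3 were set directly against HCT116 cells lacking IGF2BP2. The comparison uses 12 of the 32 libraries of the series, 6 from IGF2BP3 knockout and 6 from IGF2BP2 knockout cells, chosen by genotype and treatment, with the replicate number as a term in the fit. HCT116 is a human colorectal carcinoma line, and every line used, the parental cells included, carries Tet-OsTIR1-PURO, a doxycycline-inducible OsTIR1 transgene. Each knockout was made by transient transfection of a Cas9 and GFP plasmid carrying 1 guide, and GFP-positive cells were sorted singly into clones. IGF2BP3 knockout is represented by clones A3, D12 and E4 and IGF2BP2 knockout by clones B7, F6 and G6, each with 2 libraries. The labels give a tunicamycin dose of 5 µg/mL and a time of 4 h for the IGF2BP3 knockout clones and for parental cells, while the dose and time used for the IGF2BP2 knockout clones are not given in the sources used here. The same 6 clones in DMSO (6 libraries per knockout) and 2 parental samples in tunicamycin (4 libraries) are set beside them. Poly(A) RNA was sequenced, and the deposited values are read counts per gene.

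IGF2BP1, IGF2BP2 and IGF2BP3 encode RNA-binding proteins that hold RNA through RRM and KH domains, stabilise or localise bound mRNAs, and can prefer mRNAs carrying N6-methyladenosine (m6A). IGF2BP1 and IGF2BP3 are largely fetal proteins that many carcinomas express again. Tunicamycin blocks N-linked glycosylation, so proteins misfold in the endoplasmic reticulum (ER) and the unfolded protein response (UPR) follows through the sensors ATF6, IRE1 and PERK. ATF6 and IRE1 raise ER chaperones and degradation factors, and PERK acts through the transcription factor ATF4.

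The guides are shown because each knockout was made with 2 of them, so the clones of a knockout do not all carry the same lesion. All 4 lie in coding exons in GENCODE release 29 on GRCh38 (hg38), on the plus strand, with both genes on the minus strand. Coordinates cover the 20 guide bases, and capitals mark the adjacent PAM, the bases Cas9 requires.
IGF2BP3, clones E4 and A3: tggcaccgactgatagagctGGG
IGF2BP3, clone D12: acgcgtagccagtcttcaccAGG
IGF2BP2, clones F6 and B7: gagctgccggaggtcgtcggCGG
IGF2BP2, clone G6: aggcgtagccggacttcagcAGG
The guide of E4 and A3 (chr7:23319200-23319219) lies in exon 11 of 15 of IGF2BP3, with its expected cut in codon 414 of 579. That of D12 (chr7:23469990-23470009) lies in exon 1 at codon 35. The guide of F6 and B7 (chr3:185824895-185824914) lies in exon 1 of 16 of IGF2BP2 at codon 17 of 599, and that of G6 (chr3:185824837-185824856) in the same exon at codon 36.

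Each targeted mRNA was lowest in its own knockout, and both remained detectable. Levels are given as CPM, counts scaled to a common normalised library total. IGF2BP2 (ENSG00000073792_16) stood at 100.3, 105 and 114 CPM in IGF2BP2 knockout libraries (lowest, median and highest of 6) and at 164, 172 and 198 CPM in IGF2BP3 knockout libraries, so the groups did not overlap. Parental libraries in tunicamycin ran from 183 to 205 CPM. Its log2 fold change, here always IGF2BP3 knockout over IGF2BP2 knockout, was 0.71 (SE 0.049, edgeR adjusted p 3.84e-06). IGF2BP3 (ENSG00000136231_14) stood at 19.5, 27.6 and 50.5 CPM in IGF2BP3 knockout libraries, at 61.3, 70.6 and 99.3 CPM in IGF2BP2 knockout libraries, and at 69.9 to 74.8 CPM in parental libraries. The knockouts again did not overlap, but the log2 fold change of -1.26 (SE 0.27) just missed the threshold of 0.05, with an edgeR adjusted p of 0.0531. The IGF2BP3 knockout clones differed among themselves. D12, whose guide cuts in exon 1, averaged 48.7 CPM, against 24.8 CPM in A3 and 23.2 CPM in E4, whose guide cuts in exon 11. Without D12 the log2 fold change was -1.70 (edgeR adjusted p 0.00598), and without any 1 of the other clones the adjusted p was 0.0767 to 0.238. IGF2BP1 was near the floor, at 0.224 to 0.522 CPM over the 12 libraries, and was not tested. An mRNA level does not show whether protein remained.

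**Figure D1:**
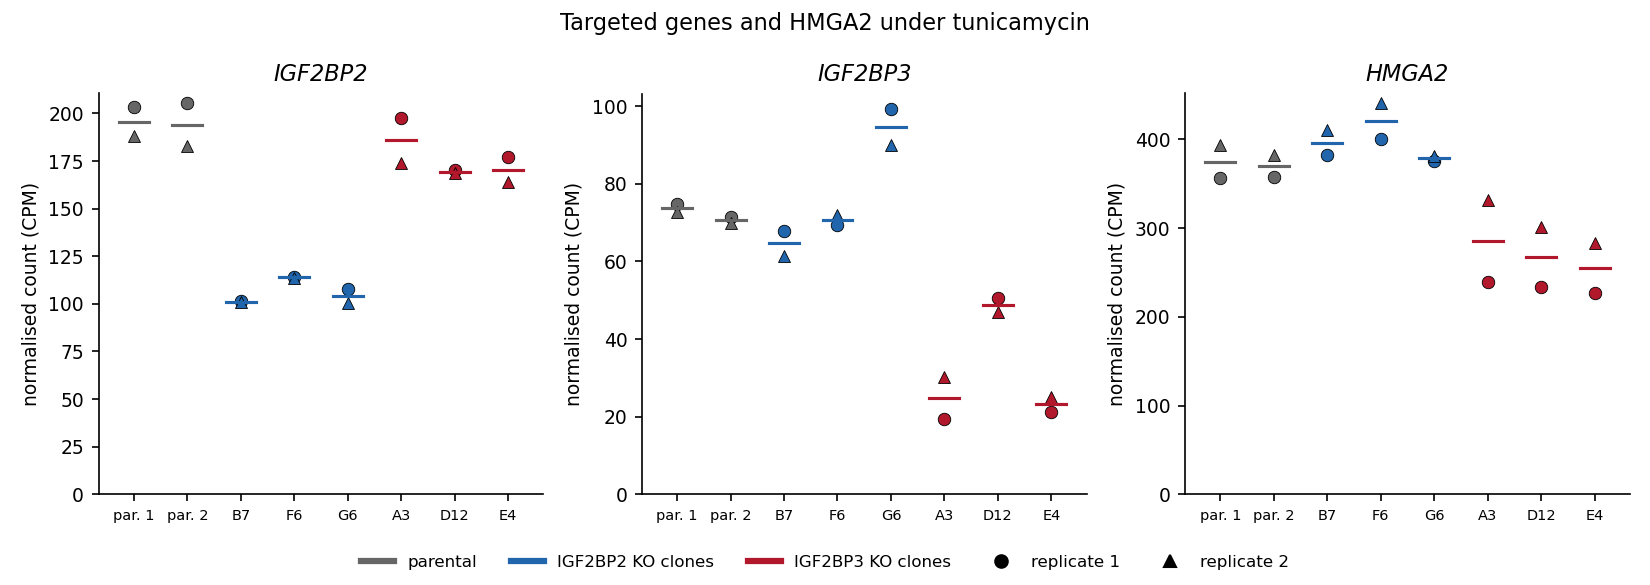
Normalised counts (CPM) of IGF2BP2, IGF2BP3 and HMGA2 in every tunicamycin library, with a circle for replicate 1, a triangle for replicate 2 and a bar for the mean of each parental sample (par.) or clone. IGF2BP2 is lowest in clones B7, F6 and G6 (100.3 to 114 CPM), IGF2BP3 in A3, D12 and E4 (19.5 to 50.5 CPM), and HMGA2 is lower in A3, D12 and E4 than in the other clones.

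The 12 libraries held 16651438 to 23588704 counts each. Replicate 1 libraries had a count in 21259 to 22670 genes and replicate 2 libraries in 23423 to 24267. Of 15 colon epithelial markers, 10 averaged at least 1 CPM in IGF2BP3 knockout and 9 in IGF2BP2 knockout, with summed levels of 3541 to 4933 and 3336 to 5658 CPM. VIL1, TSPAN8, LGALS4, CEACAM5 and CEACAM6 were too low to test. The 13 blood and endothelial markers summed to 0.519 to 1.5 CPM, and none averaged 1 CPM in either knockout. In bulk RNA, fewer cells of a kind and less RNA per cell cannot be told apart. The titles of the 2 DMSO libraries of clone G6 say control while their treatment field says tunicamycin. They were placed by title, and G6 levels of HSPA5, the main ER chaperone, averaged 908 CPM in these libraries and 9720 CPM in its tunicamycin libraries.

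Clone B7 stood apart on 1 chromosome. Over 360 genes of chromosome 8, its median log2 ratio to parental cells was 0.48 in tunicamycin and 0.47 in DMSO, with 97.8% and 96.9% of the genes above 0. Every other median of a clone on a chromosome lay between -0.06 and 0.05 in both treatments. In the comparison of the knockouts, the 491 tested genes of chromosome 8 had a median log2 fold change of -0.20, and 7 of them were called, all lower, beside 0.768% of all genes called lower and 1.51% called in either direction (SNTB1, DENND3, SAMD12, LOXL2, ZHX1, TRIQK and TMEM65). Without B7 the median was -0.02 and 3 genes of that chromosome were called, all lower. These 7 genes were listed after their values were seen, apart from DENND3.

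**Figure D2:**
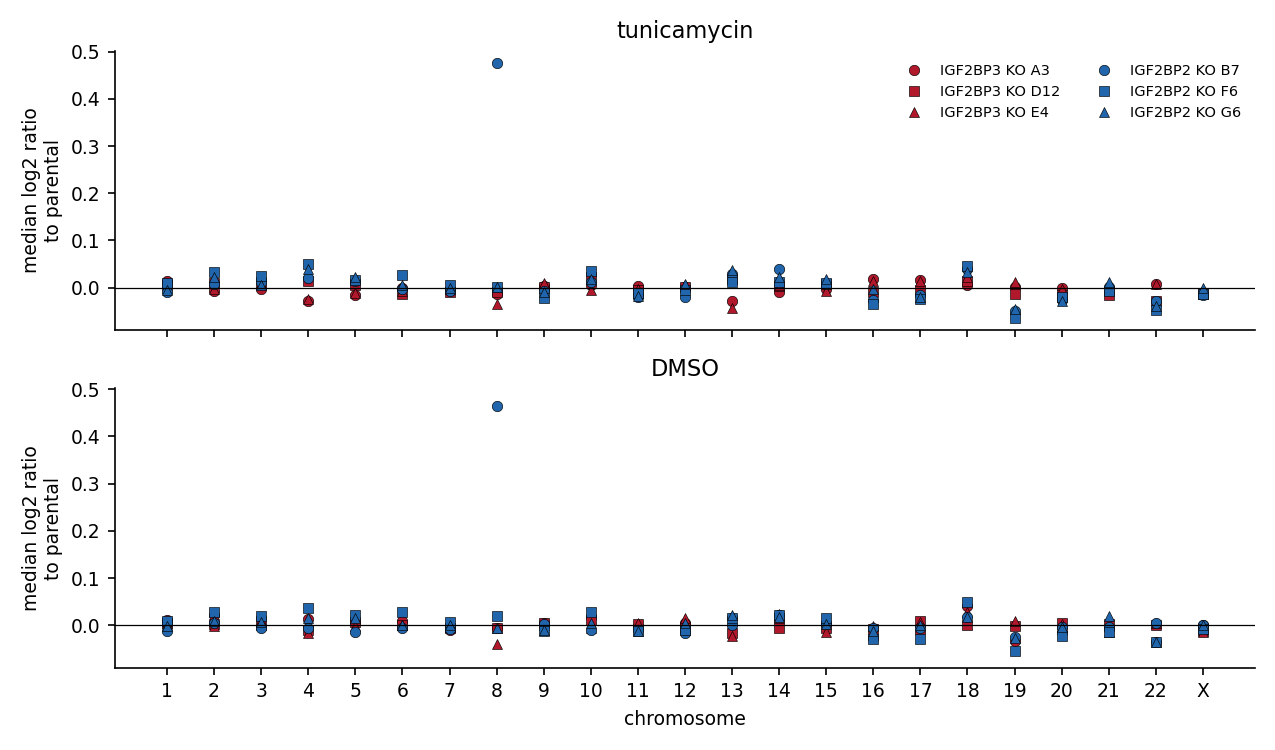
Median log2 ratio to parental cells of the genes on each chromosome, 1 point per clone, in tunicamycin (top) and DMSO (bottom). Clone B7 lies at 0.48 and 0.47 on chromosome 8, and all other points lie between -0.06 and 0.05.

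Of 14066 genes tested under tunicamycin, 213 (1.51%) were called at an edgeR adjusted p under 0.05, 105 higher (0.746%) and 108 lower (0.768%) in IGF2BP3 knockout than in IGF2BP2 knockout. Most differences were small. The median absolute log2 fold change of the called genes was 0.34, 153 of them lay under 0.5, and 19 exceeded 1, of which 14 were lower in IGF2BP3 knockout. The libraries of the 2 knockouts did not overlap for 187 genes (1.33%), including 92 of the called ones. The median over all genes was -0.01. With no replicate block 51 genes were called. The labels do not say that the 2 libraries of a clone came from separate cultures, so the adjusted p-values measure the spread between libraries, and 3 clones per knockout are the independent lines. With the counts of each clone summed, edgeR called 2 genes (0.0126%), IGF2BP2 higher (0.00632%) and HMGA2 lower (0.00632%). Before adjustment p was under 0.05 for 1651 genes (10.4%) there and for 2638 (18.8%) in the fit to single libraries. By limma voom with the clone as a correlated block 30 genes (0.213%) were called, 8 higher (0.0569%) and 22 lower (0.156%), all among the 213.

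The count turned on single clones. It was 24 without E4, 65 without D12, 78 without A3, 88 without B7, 216 without G6 and 502 without F6. Called in all 7 of these fits were 10 genes, listed here after their values were seen: IGF2BP2, which was higher, and HMGA2, TFPI, SEC14L1, ARHGAP18, DENND3, BMERB1, PKIB, C1orf226 and SNTB1, which were lower. All 10 were also among the 30 of limma voom.

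HMGA2, a chromatin protein of the high mobility group whose mRNA is a reported target of the IGF2BP family, was lower in every IGF2BP3 knockout library than in any IGF2BP2 knockout library. It lies at chr12:65824131-65966295 (ENSG00000149948_14). Its level was 227, 261 and 332 CPM in IGF2BP3 knockout (lowest, median and highest) and 376, 392 and 441 CPM in IGF2BP2 knockout, without overlap. Parental libraries, at 357 to 393 CPM, lay beside the IGF2BP2 knockout. Clone means were 286, 268 and 255 CPM in A3, D12 and E4 and 396, 421 and 379 CPM in B7, F6 and G6. The log2 fold change was -0.58 (SE 0.062, edgeR adjusted p 0.000624), it was -0.63 to -0.54 with each clone left out, and the adjusted p with counts summed per clone was 0.0403. With replicate 2 libraries alone the edgeR adjusted p was 0.409. HMGA2 was the only 1 of 22 tested members of a list of reported IGF2BP target mRNAs to be called, beside 1.51% of all genes. The median of that list was 0.05. Without F6 a second member was called, higher. MYC, another reported target, showed a log2 fold change of -0.25 (SE 0.12, edgeR adjusted p 0.287), with overlapping libraries at 288 to 546 and 383 to 623 CPM. It lies on chromosome 8, where B7 stood apart.

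The largest decreases included the genes of a secreted semaphorin, a receptor kinase and its ligand. The 12 named here had the largest negative log2 fold changes among called genes with a mean count of at least 100 and no overlap between the libraries. SEMA3A, a secreted semaphorin that repels axons and acts through neuropilin and plexin receptors, stood at 0.722, 1.59 and 2.72 CPM in IGF2BP3 knockout and at 5.32, 80.6 and 146 CPM in IGF2BP2 knockout. Its clone means were 1.59, 0.790 and 2.62 CPM in A3, D12 and E4 but 80.6, 5.56 and 141 CPM in B7, F6 and G6, and parental libraries ran from 33.3 to 51.9 CPM. F6 thus lay below the parental range while B7 and G6 lay above it. The log2 fold change was -5.47 (SE 1.0, edgeR adjusted p 0.0389), and the call was lost without A3, D12, E4, B7 or G6 (edgeR adjusted p 0.131, 0.116, 0.189, 0.109 and 0.0750). It was also lost in limma voom with the clone as a correlated block (adjusted p 0.458) and with counts summed per clone (edgeR adjusted p 0.407). SEMA3A was the only called gene among 24 tested semaphorins, plexins and neuropilins, beside 1.51% of all genes called. The median of these 24 was 0.002.

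MERTK, a receptor kinase for the uptake of dying cells, and PROS1, which encodes protein S, a ligand of MERTK, were both lower in IGF2BP3 knockout. MERTK stood at 7.62, 8.11 and 8.93 CPM against 12.8, 17 and 26.7 CPM, a log2 fold change of -1.15 (SE 0.16, edgeR adjusted p 0.00886). PROS1 stood at 6.80, 7.33 and 8.29 CPM against 9.91, 11.3 and 14.4 CPM (log2 fold change -0.68, SE 0.11, edgeR adjusted p 0.00973). The IGF2BP3 knockout libraries of both genes were tightly grouped and lay below all parental libraries, which started at 11.3 CPM for MERTK and 9.68 CPM for PROS1. Without E4 neither was called (edgeR adjusted p 0.0746 and 0.0597).

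THBS1, the matrix glycoprotein thrombospondin 1, was the most abundant of these genes, at 42.9, 62.7 and 77.4 CPM against 83.5, 144 and 237 CPM. The log2 fold change was -1.28 (SE 0.24, edgeR adjusted p 0.0398). SLC1A1, a glutamate and aspartate transporter, stood at 2.22, 3.03 and 5.58 CPM against 6.12, 7.67 and 13.7 CPM (log2 fold change -1.36, SE 0.28, edgeR adjusted p 0.0380). It was the only 1 of 18 tested amino acid transporters to be called, beside 1.51% of all genes. Both calls were lost without any 1 of several clones: THBS1 without A3, D12, E4, B7 or F6 (edgeR adjusted p 0.101, 0.101, 0.139, 0.0979 and 0.0537) and SLC1A1 without D12, E4, B7 or G6 (0.106, 0.179, 0.0612 and 0.0502). Neither was called in limma voom with the clone as a correlated block (adjusted p 0.141 and 0.0756).

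Of the other named decreases, 3 kept their call with every clone left out in turn. C1orf226 stood at 2.67, 3.26 and 4.86 CPM against 5.90, 8.07 and 8.77 CPM, with a log2 fold change of -1.20 (SE 0.15, edgeR adjusted p 0.00345). BMERB1 (-0.73, edgeR adjusted p 0.00886) and DENND3, an exchange factor for a Rab GTPase (-0.66, edgeR adjusted p 0.00756), were the other 2. DENND3 lies on chromosome 8, and its log2 fold change was between -0.76 and -0.59 over those fits. LPAR1, a lysophosphatidic acid receptor, changed by -0.64 (edgeR adjusted p 0.0103) and lost its call without E4 (0.0781). SLC45A1, a sugar transporter, changed by -0.86 and lost it without E4 or B7 (edgeR adjusted p 0.0758 and 0.0590). SYT12, a synaptotagmin, changed by -0.74 and lost it without D12 or E4 (0.0650 and 0.0939). FOXO1, a transcription factor restrained by insulin signalling, changed by -0.62 and lost it without A3, D12, E4 or B7 (edgeR adjusted p 0.0902, 0.0582, 0.141 and 0.0971). SYT12 and FOXO1 were not called in limma voom with the clone as a correlated block (adjusted p 0.0823 and 0.117).

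**Figure D3:**
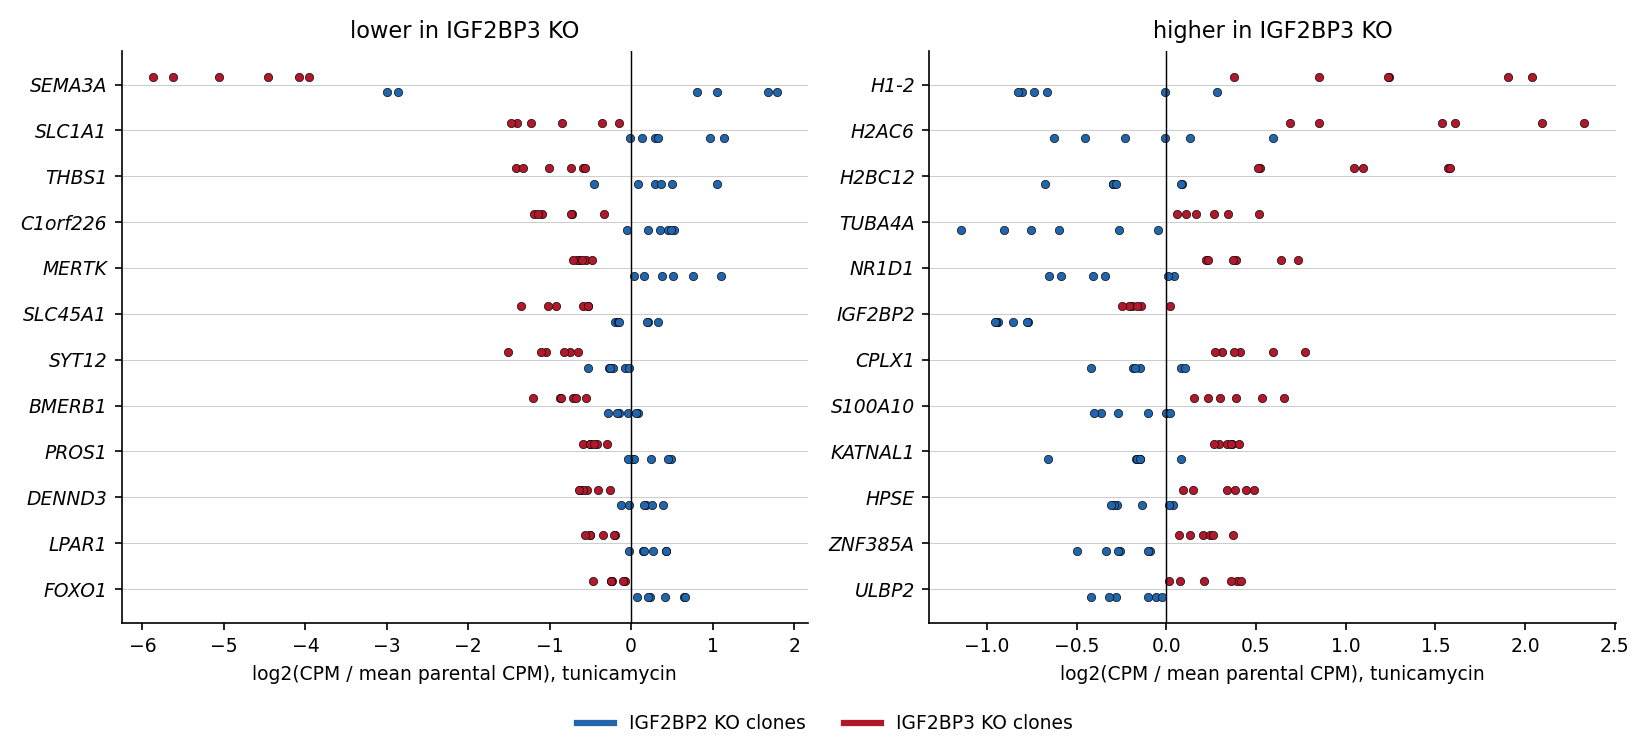
Each library's level relative to the mean of the 4 parental tunicamycin libraries, as log2(CPM / mean parental CPM), for the 12 largest decreases (left) and 12 largest increases (right) of the named genes. The 6 libraries of IGF2BP3 knockout (red) and the 6 of IGF2BP2 knockout (blue) do not overlap for any of the 24, which is how they were chosen, and SEMA3A splits the IGF2BP2 knockout clones on either side of 0.

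Among the 12 largest increases were 3 histone genes and IGF2BP2 itself. Of the other 8, S100A10, an annexin A2 partner, was the most abundant, at 122, 139 and 173 CPM in IGF2BP3 knockout and 82.9, 96.6 and 111 CPM in IGF2BP2 knockout. Its log2 fold change was 0.55 (SE 0.088, edgeR adjusted p 0.0119). KATNAL1, a microtubule-severing katanin subunit, stood at 38.5, 40.9 and 42.4 CPM against 20.2, 28.7 and 33.8 CPM (log2 fold change 0.52, SE 0.080, edgeR adjusted p 0.00886). ZNF385A, a zinc finger protein, changed by 0.46 (SE 0.075, edgeR adjusted p 0.0103). Among the fits with 1 clone left out, all 3 lost their call only without E4 (edgeR adjusted p 0.0781, 0.0758 and 0.0949). With counts summed per clone none of the 3 was called (edgeR adjusted p 0.329, 0.302 and 0.329).

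NR1D1, the circadian repressor REV-ERB alpha, stood at 99.0, 111 and 142 CPM against 54.0, 65.7 and 87.5 CPM (log2 fold change 0.73, SE 0.14, edgeR adjusted p 0.0353). TUBA4A, an alpha tubulin, stood at 15, 16.7 and 20.6 CPM against 6.49, 9.02 and 13.9 CPM (log2 fold change 0.81, SE 0.16, edgeR adjusted p 0.0305). For NR1D1, IGF2BP3 knockout libraries lay above all parental libraries (81.9 to 88.3 CPM). For TUBA4A they overlapped the parental libraries (13.3 to 16.6 CPM), and the median of the IGF2BP2 knockout libraries lay below that range. CPLX1, a complexin, changed by 0.57, HPSE, the enzyme heparanase, by 0.47 and ULBP2, a ligand of the NKG2D receptor, by 0.44, with edgeR adjusted p of 0.0330, 0.0193 and 0.0439. These 5 calls depended on several clones. Without A3, D12, E4 or B7, NR1D1 had edgeR adjusted p of 0.0781, 0.0747, 0.163 and 0.0892 (0.0764 without F6), TUBA4A of 0.0997, 0.0656, 0.140 and 0.105, CPLX1 of 0.0978, 0.0755, 0.104 and 0.0921, and ULBP2 of 0.0983, 0.0697, 0.248 and 0.121 (0.0866 without G6). HPSE was lost without D12, E4, B7 or G6 (0.0521, 0.135, 0.0585 and 0.0553). With no replicate block CPLX1 and ULBP2 were not called. In limma voom with the clone as a correlated block TUBA4A was called (adjusted p 0.0428), and NR1D1, CPLX1, HPSE and ULBP2 were not (0.0593, 0.146, 0.0750 and 0.147).

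Histone genes held the 3 largest of the named increases. Of 12 tested replication-dependent and linker histone genes, 4 were called higher and none lower, against 0.746% of all genes called higher, and 10 of the 12 had a positive log2 fold change, with a median of 0.89. In limma voom with the clone as a correlated block none of the 4 was called (adjusted p 0.132 for H1-2, 0.133 for H2AC6, 0.0533 for H2BC12 and 0.203 for H3C10). H1-2, a linker histone, stood at 12.8, 23.3 and 40.6 CPM in IGF2BP3 knockout and at 5.56, 6.06 and 12 CPM in IGF2BP2 knockout (log2 fold change 1.77, SE 0.33, edgeR adjusted p 0.0353). H2AC6, an H2A gene, stood at 5.47, 10.1 and 17.1 CPM against 2.19, 3.13 and 5.12 CPM (1.68, SE 0.31, edgeR adjusted p 0.0305). H2BC12, an H2B gene, stood at 11, 16.2 and 23 CPM against 4.82, 6.30 and 8.19 CPM (1.32, SE 0.21, edgeR adjusted p 0.0176). H3C10 was near the floor, at 0.687, 1.05 and 1.95 CPM against 0.315, 0.521 and 0.674 CPM (1.13, SE 0.27, edgeR adjusted p 0.0489). None of the 4 overlapped between knockouts, beside 1.33% of all genes and 92 of the 213 called genes without overlap. For H1-2, H2AC6 and H2BC12 this was a condition for a place among the 12 largest increases. Parental libraries ran from 8.29 to 11.4 CPM for H1-2 and from 3.0 to 3.96 CPM for H2AC6, below all IGF2BP3 knockout libraries.

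The size of the histone increase varied with the clone. H1-2 averaged 38.8 CPM in E4, 23.3 CPM in A3 and 15.3 CPM in D12, and 5.6, 10.9 and 6.06 CPM in B7, F6 and G6. Calls among the list numbered 0 without A3, B7 or G6, 1 without E4, 4 without F6 and 5 without D12, and the list's median stayed between 0.57 and 1.27. H1-2 lost its call without A3, E4, B7 or G6 (edgeR adjusted p 0.0886, 0.105, 0.132 and 0.101), H2AC6 without the same clones (0.0812, 0.0903, 0.115 and 0.0841), H2BC12 without A3, B7 or G6 (0.0574, 0.0875 and 0.0518) and H3C10 without A3, E4, B7, F6 or G6 (0.1, 0.280, 0.132, 0.0791 and 0.0716). Most histone mRNAs of this kind lack a poly(A) tail, so a poly(A) library samples only part of them. The coding sequences of the H2A, H2B and H3 genes are near-identical between copies, so their reads may be split between genes.

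The promoters of the 4 called histone genes are shown because these genes moved together. Each line gives the 140 bases before the transcription start from RefSeq on GRCh38.p14, and capitals mark CCAATCA, which holds the CCAAT box, and the octamer ATTTGCAT, each on either strand.
H1-2: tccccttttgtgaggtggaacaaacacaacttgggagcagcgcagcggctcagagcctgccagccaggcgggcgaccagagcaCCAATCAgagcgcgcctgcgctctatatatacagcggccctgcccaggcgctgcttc
H2AC6: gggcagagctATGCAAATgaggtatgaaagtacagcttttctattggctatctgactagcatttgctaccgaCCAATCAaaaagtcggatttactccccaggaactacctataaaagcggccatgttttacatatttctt
H2BC12: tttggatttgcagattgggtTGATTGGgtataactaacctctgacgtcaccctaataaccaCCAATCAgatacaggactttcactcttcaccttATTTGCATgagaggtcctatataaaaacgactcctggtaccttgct
H3C10: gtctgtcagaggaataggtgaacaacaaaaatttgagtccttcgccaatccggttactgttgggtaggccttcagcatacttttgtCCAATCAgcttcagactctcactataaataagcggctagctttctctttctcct
They lie at chr6:26056471-26056610 (H1-2, minus strand), chr6:26124032-26124171 (H2AC6, plus), chr6:27146859-27146998 (H2BC12, minus) and chr6:27809911-27810050 (H3C10, plus). Over promoter windows of 300 bases, CCAATCA was present in 10 of the 10 tested histone genes that could be matched and in 6.95% of 35116 promoters. ATTTGCAT was present in 6 of 10 and 1.77%, and TATAAA in 9 of 10 and 11.5%. All 4 called genes held CCAATCA, 2 held ATTTGCAT and 3 held TATAAA.

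Among genes of replication and mitosis the differences were smaller. Of 27 tested, 3 were called higher and none lower, against 0.746% of all genes called higher, 22 had a positive log2 fold change, and the median was 0.12. The called genes were PLK1, a mitotic kinase (125, 143 and 162 CPM against 112, 120 and 127 CPM, log2 fold change 0.25, edgeR adjusted p 0.0353), CDC20, an activator of the anaphase-promoting complex (0.21, edgeR adjusted p 0.0424), and GINS2, a subunit of the replicative helicase (0.22, edgeR adjusted p 0.0439). The libraries overlapped for all 3, and none was called in limma voom with the clone as a correlated block (adjusted p 0.151, 0.185 and 0.182). None of the list was called without A3, D12, E4 or F6 and 1 without B7 or G6, with a median of 0.08 to 0.15. For PLK1 the highest edgeR adjusted p on leaving a clone out was 0.211, for CDC20 0.255 and for GINS2 0.166, each without E4.

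Among chemokine and NF-kB genes, CXCL8 and NFKB2 were lower in IGF2BP3 knockout. Of 14 tested, 2 were called lower and none higher, against 0.768% of all genes called lower, 13 had a negative log2 fold change, and the median was -0.41. CXCL8, the neutrophil-attracting chemokine interleukin 8, stood at 1.41, 2.59 and 2.94 CPM against 3.29, 7.62 and 10.0 CPM (log2 fold change -1.54, SE 0.28, edgeR adjusted p 0.0280), without overlap. NFKB2, a subunit of NF-kB, stood at 78.4, 89.0 and 97.9 CPM against 91.0, 126 and 141 CPM (-0.48, SE 0.074, edgeR adjusted p 0.00886), with overlap between the groups. RELB, the partner of the NFKB2 product, had a log2 fold change of -0.50 (edgeR adjusted p 0.0529) and BIRC3, an NF-kB target that restrains caspases, one of -1.10 (edgeR adjusted p 0.0757). In limma voom with the clone as a correlated block 1 of these calls was kept, NFKB2 (adjusted p 0.0428), and CXCL8 was not called (0.141). Calls in the list were 0 without E4, 1 without A3 or D12, 2 without B7 or F6 and 4 without G6. CXCL8 was lost without A3, D12, E4 or G6 (edgeR adjusted p 0.0882, 0.0697, 0.140 and 0.0573) and NFKB2 without E4 (0.0758).

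Among UPR genes HSPA5 alone was called, so the share called was no higher than the 1.51% over all genes. Of 13 tested ATF6 targets 1 was called, lower, with a list median of -0.04. No member was called among 22 IRE1 and XBP1 targets (median -0.03), 20 PERK and ATF4 targets (median 0.03) or 19 UPR sensors and ER-associated degradation genes (median 0.01). The called gene was HSPA5, which encodes the ER chaperone BiP. It stood at 7867, 8193 and 9073 CPM in IGF2BP3 knockout, at 8979, 9413 and 9999.9 CPM in IGF2BP2 knockout and at 9154 to 10959 CPM in parental libraries, so the highest IGF2BP3 knockout library lay above the lowest IGF2BP2 knockout library. The log2 fold change was -0.19 (SE 0.043, edgeR adjusted p 0.0439), and the call was lost with no replicate block (0.103), in limma voom with the clone as a correlated block (0.141) and without A3, D12, E4, B7 or G6 (edgeR adjusted p 0.0882, 0.0830, 0.197, 0.0988 and 0.0857).

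Other UPR genes with values near those of HSPA5 were not called. HSP90B1, the ER form of HSP90, had a log2 fold change of -0.19 (edgeR adjusted p 0.174) and DNAJB9, an HSPA5 cofactor, one of -0.15 (0.0986). SEC24D, a coat protein of ER export vesicles, had one of -0.18 (edgeR adjusted p 0.0795). The sensors ATF6, ERN1 (IRE1) and EIF2AK3 (PERK) had log2 fold changes of 0.01, -0.11 and -0.15. On the PERK branch, ATF4 had one of 0.04 and DDIT3, which encodes the pro-apoptotic factor CHOP, one of 0.19 (edgeR adjusted p 0.132), at 203 to 289 CPM against 175 to 250 CPM. No gene was called among 14 death receptors and caspases or 13 members of the BCL2 family, beside 1.51% of all genes called.

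**Figure D4:**
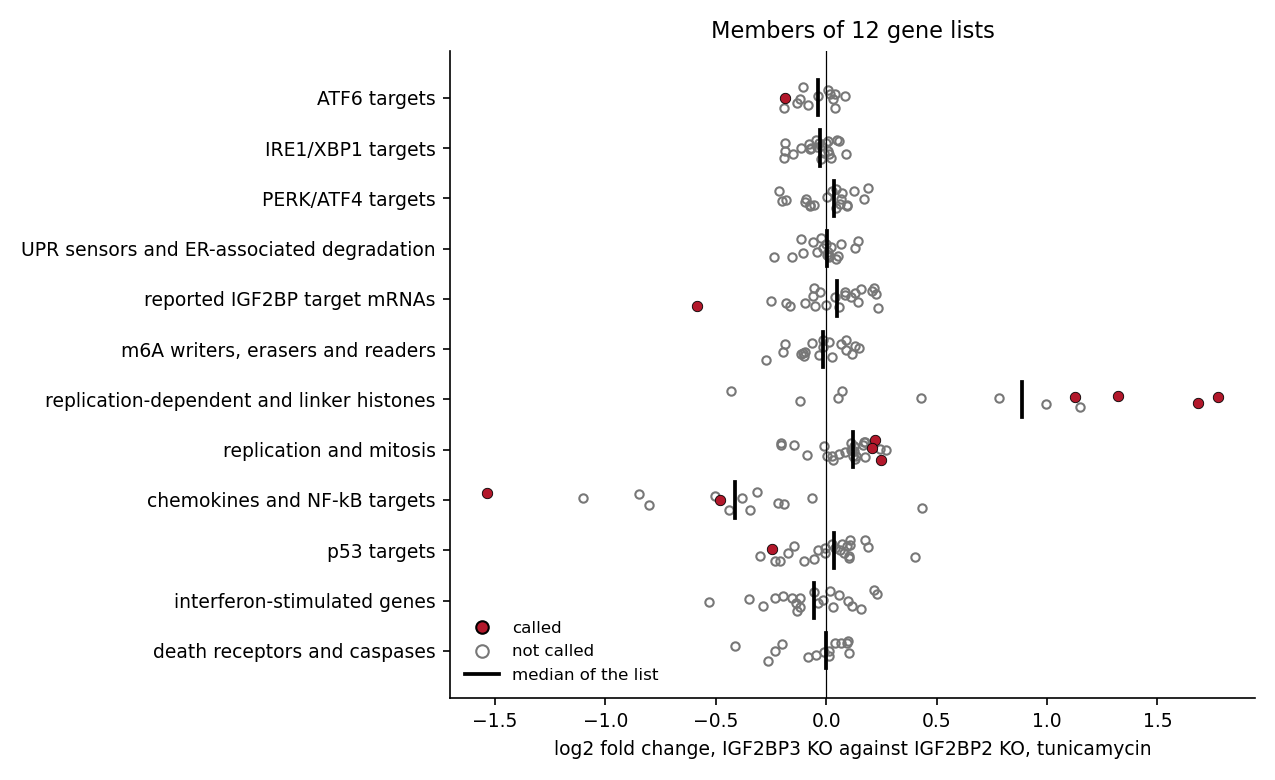
Log2 fold change of each tested member of 12 gene lists, IGF2BP3 knockout over IGF2BP2 knockout under tunicamycin, with called genes in red and a bar at the list median. The 4 lists of UPR genes lie close to 0 (medians -0.04 to 0.03), histones lie to the right (median 0.89) and chemokines and NF-kB targets to the left (median -0.41).

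The remaining lists held at most 1 called member each, beside 1.51% of all genes called. Called higher were ITGA5, the alpha 5 integrin (1 of 12 tested integrins, log2 fold change 0.26), FSTL3, an activin-binding protein (1 of 20 TGF-beta and BMP genes, 0.52), FOSB, an AP-1 subunit (1 of 24 immediate early genes, 0.51), and KEAP1, the repressor of NRF2 (1 of 16 NRF2 and iron storage genes, 0.25). Called lower were PDK1, a pyruvate dehydrogenase kinase (1 of 22 glycolysis and hypoxia genes, -0.46), ZMAT3, an RNA-binding p53 target (1 of 24, -0.24), and CLDN3, a tight junction claudin (1 of 10 colon epithelial markers, -0.69). Their edgeR adjusted p ran from 0.0176 (CLDN3) to 0.0479 (FOSB), and each was lost on leaving out at least 3 different clones. Only PDK1 and ZMAT3 had no overlap between libraries, beside 92 of the 213 called genes. None of the 7 was called in limma voom with the clone as a correlated block (adjusted p 0.103 for CLDN3 to 0.174 for FOSB and ITGA5). Without E4 all 7 were lost, with edgeR adjusted p of 0.0781 (CLDN3) to 0.275 (FOSB). The 21 members tested of S100 proteins, annexins and keratins held S100A10 alone. No member was called among 19 m6A writers, erasers and readers, 21 interferon-stimulated genes, 21 cholesterol synthesis genes, 11 EGF receptors and ligands, 12 Wnt genes, 16 laminin and basement membrane genes, 4 metallothioneins, 13 mitochondrially encoded mRNAs, 8 mesenchymal markers, 3 neuronal markers and 12 reference genes. Summed mesenchymal markers ran from 42.0 to 58.6 CPM in IGF2BP3 knockout and from 51.1 to 69.1 CPM in IGF2BP2 knockout.

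The same clones in DMSO, in separate libraries, showed the same differences to a large extent. In DMSO 177 of 14250 genes (1.24%) were called, 92 higher (0.646%) and 85 lower (0.596%), and 93 genes were called in both treatments, all in the same direction. The DMSO count was 43, 48, 44 and 61 without A3, D12, E4 or B7, 451 without F6 and 306 without G6. The shared genes made up 43.7% of the tunicamycin calls and 52.5% of the DMSO calls. Of the 210 tunicamycin calls tested in DMSO, 209 had the same sign there. Over 13809 genes, which share clones between treatments, the log2 fold changes had a Pearson r of 0.74, as a description across genes that are not independent replicates. SEMA3A changed by -5.47 in tunicamycin and -5.42 in DMSO, HMGA2 by -0.58 and -0.62, H1-2 by 1.77 and 1.74, and S100A10 by 0.55 and 0.52. CXCL8 changed by -1.54 in tunicamycin and had a value of -1.29 in DMSO (edgeR adjusted p 0.0513). In DMSO it was near the floor, at 0.307 to 0.672 CPM in IGF2BP3 knockout and 0.690 to 2.43 CPM in IGF2BP2 knockout. HSPA5 was the 1 called gene with opposite signs, -0.19 in tunicamycin and 0.12 in DMSO.

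The interaction tests whether the difference between the knockouts itself differed between treatments, with the clone as a term. In edgeR no gene of 14916 passed (0%), 558 (3.74%) had an unadjusted p under 0.05, and DESeq2 with the same terms called 11, all but HSPA5, IGF2BP2 and MBNL2 with fitted log2 values of -17.2 or beyond. Without A3 or F6 edgeR called 1 gene. The 5 genes with the smallest p were HSPA5, FAM107B, IGF2BP2, FOXO3 and HYOU1. HSPA5 averaged 1003, 989 and 961 CPM in A3, D12 and E4 in DMSO and 8567, 8488 and 7960 CPM in tunicamycin. In B7, F6 and G6 it averaged 863, 962 and 908 CPM and then 9489, 9130 and 9720 CPM. Its interaction was -0.30 on the log2 scale, with an adjusted p of 0.111 by edgeR and 0.00651 by DESeq2. Because the tunicamycin dose and time of the IGF2BP2 knockout clones are not given, exposure and genotype cannot be told apart in any interaction here. HYOU1, another ER chaperone and ATF6 target, had an interaction of -0.22 (edgeR adjusted p 0.245), being called higher in DMSO (0.20, edgeR adjusted p 0.0415) and near 0 in tunicamycin (-0.04). IGF2BP2 had an interaction of -0.23 (edgeR adjusted p 0.111, DESeq2 adjusted p 0.00636). FOXO3, a transcription factor, had one of 0.24 (edgeR adjusted p 0.245). FAM107B had one of 0.31 (edgeR adjusted p 0.111), while its level in A3 was 13.5 CPM against 76.0 CPM in D12 under tunicamycin. Over the 13 ATF6 targets the interaction was negative for 12, with a median of -0.14, beside a median of 0.01 over all genes, and none was called. In DMSO 11 of these 13 had a positive log2 fold change, with a median of 0.10, beside a median of -0.04 in tunicamycin. Other lists were as one-sided in the interaction. It was positive for all 13 mitochondrially encoded mRNAs (median 0.06) and negative for all 8 mesenchymal markers (median -0.10).

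**Figure D5:**
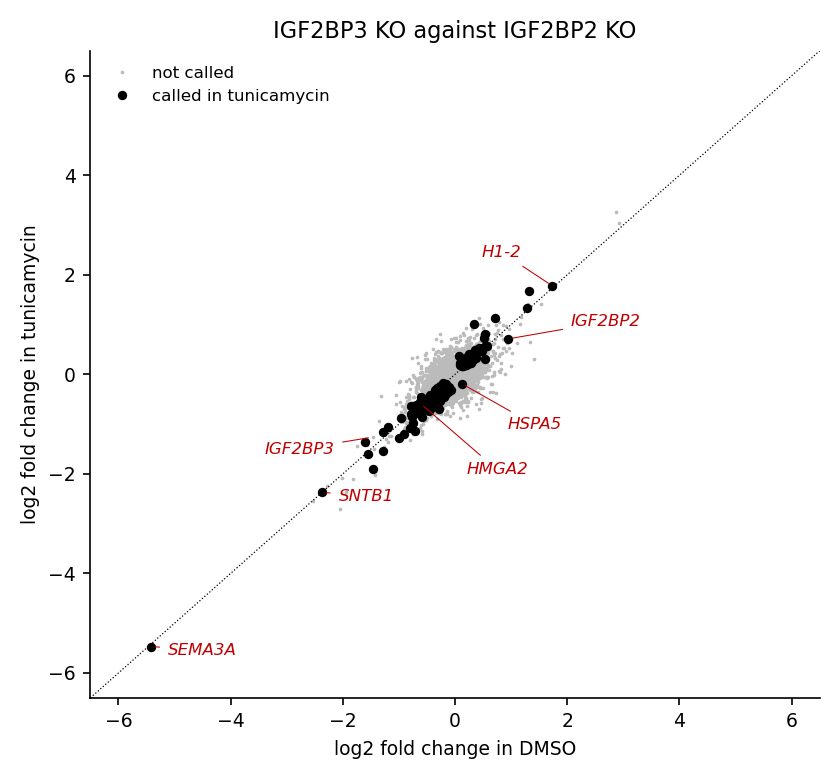
Log2 fold change of each gene in tunicamycin (vertical) against that in DMSO (horizontal), both IGF2BP3 knockout over IGF2BP2 knockout, with the genes called in tunicamycin in black and the line of equality dotted. SEMA3A lies at -5.42 and -5.47 and H1-2 at 1.74 and 1.77, near the line, while HSPA5 lies at 0.12 and -0.19.

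Parental cells under tunicamycin place the differences, in fits that share the knockout libraries with the comparison above. Against parental cells, 334 of 14626 genes (2.28%) were called in IGF2BP3 knockout, 92 of them higher (0.629%) and 242 lower (1.65%). That count was 99 with no replicate block and 126, 144, 170 or 174 without 1 of the parental libraries. In IGF2BP2 knockout 1 of 14419 (0.00694%) was called, IGF2BP2 itself, lower, with an edgeR unadjusted p under 0.05 for 1607 genes (11.1%). It was 32 calls without F6 and 109 without G6. HMGA2 changed by -0.48 in IGF2BP3 knockout against parental cells (edgeR adjusted p 0.000170), and its value in IGF2BP2 knockout was 0.11 (0.419). Likewise called in IGF2BP3 knockout alone was MERTK, at -0.60 (SE 0.088, edgeR adjusted p 0.00130) beside 0.55 in IGF2BP2 knockout (SE 0.19, edgeR adjusted p 0.396). KATNAL1 was too, at 0.35 (edgeR adjusted p 0.00470) beside -0.17 (0.508). So were SEMA3A, at -4.61 (edgeR adjusted p 0.000118) beside 0.86 (0.756), and CXCL8, at -0.83 (0.0247) beside 0.71 (0.431). Whether the 2 values of a gene differ is what the direct comparison of the knockouts tests. The fits against parental cells counted single libraries, and none of them took the clone as the unit. H1-2 had values of 1.40 (edgeR adjusted p 0.106) and -0.38 (0.538), and TUBA4A of 0.26 (0.154) and -0.55 (0.387), neither called on either side. HSPA5 changed by -0.25 in IGF2BP3 knockout (edgeR adjusted p 0.00666) and had a value of -0.06 in IGF2BP2 knockout (0.671).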

How the data were processed

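The authors deposited 1 table of raw read counts per gene (60660 identifiers, 32 libraries). Per the submitters' processing notes, STAR 2.7.5c and hg38 were used. The counting tool, annotation and strand setting are not given in the sources used here. Each comparison was fitted to its own libraries in R 4.3.3 with edgeR 4.0.16 (filterByExpr, TMM, quasi-likelihood test), with the replicate number as a term and Benjamini-Hochberg adjustment over all genes tested. The interaction had clone and replicate as terms. SEs follow from the F statistic. The replicate numbers paired the libraries: differences between replicates correlated over all 15 pairs of clones, r 0.238 to 0.718. Replicate libraries differed beyond counting noise (chi-square per degree of freedom 5.95 to 38.1). Alternatives used DESeq2 1.42.0, limma 3.58.1, other filters, clone sums and each clone left out. The fits were tested on simulated counts drawn independently for each library, with no clone or replicate effect. Such counts cannot show calls that arise from differences between clones. Members and gene lists were chosen with earlier results of these data known. The named genes were the IGF2BP family, members of the lists, the 12 largest changes in each direction among called genes with a symbol, a mean count of at least 100 and no overlap between libraries, and the 5 smallest interaction p-values. Positions come from GENCODE release 29.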

Additional observations from a re-analysis of the deposited data

How the results depend on the processing

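The clone is the limit. With 3 clones per knockout, 1 clone can make or end most calls, and the 2 guides per knockout are spread unevenly over the clones, so guide and clone cannot be told apart. Genes under about 1 CPM rest on few counts.

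The main design has the replicate block. With no replicate block, calls between the knockouts numbered 51 in tunicamycin and 90 in DMSO, and 99 for IGF2BP3 knockout against parental cells in tunicamycin. The interaction and IGF2BP2 knockout against parental cells gave 0 and 1.

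Between the knockouts in tunicamycin, DESeq2 with the replicate block called 825 genes, no filter on low counts 886, all 32 libraries in 1 fit 1145, counts summed per clone 2, limma voom with the clone as a correlated block 30, replicate 1 libraries alone 3 and replicate 2 libraries alone 1. DESeq2 size factors and a mean CPM of at least 1 gave 215 and 227. In DMSO, DESeq2 called 545, no filter 704 and counts summed per clone 2. For the interaction, DESeq2 called 11 and no filter 9, all of them negative.

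Leaving out each clone in turn gave 24 to 502 calls in tunicamycin, 43 to 451 in DMSO (306 without G6, whose DMSO labels conflict) and 0 to 1 for the interaction. Leaving out each clone or parental library, chosen after seeing the data, gave 126 to 437 for IGF2BP3 knockout and 1 to 109 for IGF2BP2 knockout against parental cells. Among single genes, the log2 fold change in tunicamycin changed sign for FAM107B (-0.50 to 0.38 over the clones left out, 0.11 without B7), FOXO3 (-0.00996 without G6 to 0.11) and HYOU1 (0.000996 with replicate 1 libraries alone), none of them called. Of the other values of single genes, 404 kept direction and call, 274 lost the call and 4 gained it.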

Other observations

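Further groups among the 213 called genes were noticed after their values were seen and carry no test of their own. Their members were picked by function from the called genes, beside 0.746% of all genes called higher and 0.768% called lower. How many genes of each function were tested was not counted. Several of the called genes assist HSP90 and were higher in IGF2BP3 knockout than in IGF2BP2 knockout under tunicamycin. FKBP4, an immunophilin co-chaperone, averaged 264, 263 and 265 CPM in A3, D12 and E4 and 199.7, 225 and 204 CPM in B7, F6 and G6, a log2 fold change of 0.32 (edgeR adjusted p 0.00886). AHSA1, an activator of the HSP90 ATPase, changed by 0.30 (edgeR adjusted p 0.0202), STIP1, which links HSP70 and HSP90, by 0.18 (0.0409), and CACYBP by 0.19 (0.0409). The HSP90 genes themselves, HSP90AA1 and HSP90AB1, had values of -0.03 and 0.01 and were not called. Besides TUBA4A, the tubulins TUBA1B (0.30, edgeR adjusted p 0.0231) and TUBB4B (0.24, 0.0398) were higher. In DMSO, FKBP4 changed by 0.26 (edgeR adjusted p 0.0188) and AHSA1 by 0.22 (0.0368). None of FKBP4, AHSA1, STIP1, CACYBP, TUBA1B and TUBB4B was among the 10 genes called in tunicamycin with every clone left out in turn.

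TFPI, the tissue factor pathway inhibitor, averaged 19.2, 19.2 and 21.3 CPM in A3, D12 and E4 and 29.4, 26.8 and 30.4 CPM in B7, F6 and G6 (log2 fold change -0.55, SE 0.078, edgeR adjusted p 0.00756), and was called with every clone left out in turn. PROS1, a cofactor of TFPI as well as a ligand of MERTK, is described above. Lower too were VCL, vinculin, with a log2 fold change of -0.40 (edgeR adjusted p 0.0311), LPP (-0.42, 0.0176) and ZYX, zyxin (-0.23, 0.0305), all 3 found at cell adhesion sites, whereas ITGA5 was higher. H2AX, a histone variant with a polyadenylated mRNA form, was higher by 0.33 (edgeR adjusted p 0.00886), without overlap between the libraries. Of the 213 called genes, 92 had no such overlap. Unlike TFPI, none of VCL, LPP, ZYX and H2AX was among the 10 genes called with every clone left out in turn.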
